A study of Mus musculus with 30 samples.

Results

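Bone morphogenetic protein (BMP) signalling was followed through 10 genes in mouse digit tips after amputation. The genes were the ligands Bmp2, Bmp4 and Bmp7, the secreted antagonists Nog (noggin) and Grem1 (gremlin), the type I receptor Bmpr1a, the inhibitory Smads Smad6 and Smad7, and the targets Id1 and Id3. They were taken by gene symbol from the tables of counts and of TPM (read abundance corrected for transcript length). All 10 were found among 20321 genes, and all 10 passed the filter on low counts that left 13793 genes for testing.

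BMP ligands bind type I and type II receptor kinases, which phosphorylate Smad1, Smad5 and Smad9, and these enter the nucleus with Smad4. Id genes, which encode helix-loop-helix proteins without a DNA-binding region, are among the direct targets of these Smads and are widely used as a readout of the pathway. Noggin and gremlin bind the ligands outside the cell, while Smad6 and Smad7 block the receptors inside it and are themselves induced by the pathway. In the digit tip, BMPs are known for their part in patterning the nail and distal bone and in regrowth after amputation.

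The mice were adult C57Bl/6 males, 9 to 10 weeks old, operated on under anaesthesia. At most 33% of the distal phalanx (P3) of hindlimb digit 3 was removed from every mouse, and wounds were left to heal without sutures. Digits came from 6 mice at 7 d and from 3 mice at each of the other 8 times, from the cut itself (0 h) over the first day (3, 6, 12 and 24 h) to 3 d, 14 d and 21 d. The digit collected at 0 h had also been amputated, so an intact digit was not part of the comparison. Each library came from the polyA RNA of a whole piece of tissue, in which more cells of a type and more RNA per cell cannot be told apart.

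The date in each sample title falls in July to August for 16 mice and in November to January for 14 mice. What the date marks is not stated, and the groups of dates are called campaigns here. The same animal code and date stand in the titles of a 0 h and a 12 h library, and whether both came from 1 mouse is not stated, so libraries are counted as mice throughout. The 3 h and 12 h mice are of July to August only and the 21 d mice of November to January only, and the other 6 times hold mice of both. Depth was 3167625 to 16277816 expected counts in a mouse (median 5083528 in July to August and 9836324 in November to January). Marker genes of keratinocytes, fibroblasts and bone cells were present in every mouse, with sums over 6 genes of 26811 to 89438, 3331 to 62805 and 125 to 3572 CPM (counts scaled to the library total). At 7 d, 3 of the 6 mice were sampled from the left foot, and all these were of November to January.

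The genes lie on several chromosomes of GRCm38. Bmp2 (chromosome 2, 133552159 to 133562885), Bmp7 (chromosome 2, 172868012 to 172940321), Grem1 (chromosome 2, 113746164 to 113758646) and Id1 (chromosome 2, 152736251 to 152737410) share chromosome 2. Bmp4 (chromosome 14, 46383520 to 46390669) and Bmpr1a (chromosome 14, 34410734 to 34503341) share chromosome 14. Nog is on chromosome 11 (89300638 to 89302332), Smad6 on chromosome 9 (63953076 to 64022059) and Id3 on chromosome 4 (136143497 to 136145755). Exons of Bmp4 overlap those of Gm15217 on the opposite strand over 89 bases, and exons of Bmpr1a overlap those of Gm17110 on the opposite strand over 290 bases. Whether strand was used in counting is not given in the sources used here, so reads from these stretches cannot be assigned to either gene.

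Promoter windows from RefSeq (GRCm38.p6, 250 bases before to 50 after the gene start) matched 5 of the 10 genes, namely Bmp4, Grem1, Bmpr1a, Smad6 and Id3. Entries were missing for Bmp2, Bmp7, Nog, Smad7 and Id1. Each window was searched for GTCTAGAC, the palindrome that Smad proteins bind, and for GGCGCC, a GC-rich palindrome also bound by BMP-activated Smads, which both read the same on either strand. GTCTAGAC was found in 67 of 27025 genes with a window (0.248%), among them Smad6, and GGCGCC in 3617 (13.4%), among them Grem1 and Bmpr1a. Stretches of Smad6 and Id3, both targets of BMP Smads, are shown from 250 bases before the RefSeq start to 10 after it. For Id3 the stretch (136143572 to 136143831) lies wholly within the gene as placed above, which begins at 136143497. The Id3 stretch is therefore not sequence from before that gene start. Capitals mark GTCTAGAC, which in Smad6 begins at position -4 and runs across the start, and the Id3 stretch holds neither motif. A match is only a description of the letters in these windows.
Smad6, chr9:64022050-64022309, minus strand: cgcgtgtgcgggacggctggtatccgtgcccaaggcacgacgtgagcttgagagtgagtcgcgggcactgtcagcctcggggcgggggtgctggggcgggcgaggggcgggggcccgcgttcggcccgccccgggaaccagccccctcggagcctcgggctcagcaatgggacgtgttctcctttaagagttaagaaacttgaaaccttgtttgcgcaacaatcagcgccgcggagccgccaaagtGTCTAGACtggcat
Id3, chr4:136143572-136143831, plus strand: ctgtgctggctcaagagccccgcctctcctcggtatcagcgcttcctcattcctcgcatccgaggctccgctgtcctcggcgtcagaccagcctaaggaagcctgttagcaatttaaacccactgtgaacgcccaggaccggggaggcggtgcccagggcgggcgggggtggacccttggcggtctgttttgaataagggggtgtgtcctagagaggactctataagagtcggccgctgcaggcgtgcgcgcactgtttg

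Levels per transcript length were compared in TPM over the 30 mice. The targets were highest, with a median of 143 TPM for Id1 (59.7 to 306) and 85.0 TPM for Id3 (51.8 to 151). The receptor Bmpr1a followed with 43.0 TPM (17.5 to 69.9). Among ligands, Bmp7 had a median of 28.8 TPM (16.1 to 45.5), Bmp4 17.2 TPM (6.89 to 27.8) and Bmp2 14.2 TPM (7.01 to 25.4). Smad7 stood at 19.4 TPM (10.4 to 32.1) and Smad6 at 5.82 TPM (0.67 to 13.0). The antagonists were lowest, Nog with 3.85 TPM (0.81 to 7.03) and Grem1 with 1.09 TPM (0 to 2.26).

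The ranges of all neighbours in this order overlapped. The order Id3 above Bmpr1a held in 30 of 30 mice, Id1 above Id3 in 25, and Bmp2 above Smad6 in 29. Smad7 was above Bmp4 in only 17 mice and Bmp4 above Bmp2 in 19, so the order of these 3 genes was not separated from the spread between mice. Grem1 rested on 0 to 44.3 expected counts per mouse and was at 0 in 2 mice (3 h mouse 2 and 3 d mouse 2), where a library still allows up to 3 counts. Nog rested on 4 to 81 expected counts and Smad6 on 3 to 159, against 82 to 1233 for Id1.

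**Figure D1:**
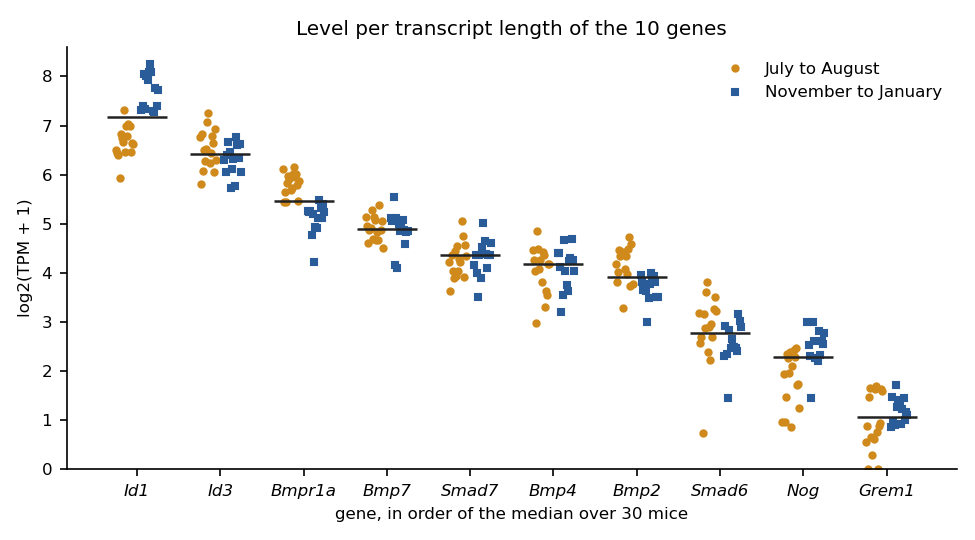
Level of each gene as log2(TPM + 1) in 30 mice, with circles for July to August, squares for November to January and a line at the median over all mice. Id1 had the highest median (143 TPM) and Grem1 the lowest (1.09 TPM).

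The first question was whether any of the 10 genes changed over the 9 time points. Counts were compared as CPM, scaled to library size and normalised by TMM, with edgeR's quasi-likelihood test and Benjamini-Hochberg adjustment over all 13793 genes. None of the 10 genes passed an adjusted p of 0.05, while 9.03% of all genes tested did. None had an unadjusted p under 0.05, and DESeq2 and limma also called 0 of the 10. In the edgeR fit, which held no campaign term, the lowest adjusted p belonged to Bmp4 (0.219), followed by Bmpr1a (0.276) and Id1 (0.310). The highest was that of Grem1 (0.993). With campaign as a covariate in edgeR, none passed either, but 2 members had an unadjusted p under 0.05. The lowest adjusted p there was that of Bmpr1a (0.0575).

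Each time was then set against 0 h. No member passed in any of the 8 comparisons, in which few genes of all were called, with 0.283% at 3 h, 0.174% at 6 h and 0.16% at 12 h. The share was 0.471% at 24 h and 0.515% at 3 d, and it came to 2.39% at 7 d, 1.59% at 14 d and 1.94% at 21 d. At an unadjusted p under 0.05, edgeR gave 1 member each at 24 h, 3 d and 7 d and 0 at the other times, and DESeq2 and limma called 0 throughout. With shares this small, 0 of 10 is not set apart from the background. These comparisons share the same 0 h mice, and standard errors of the log2 fold changes reached 0.96 at 3 h, so that changes of low genes such as Grem1 were not detectable at this depth and number of mice.

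**Figure D2:**
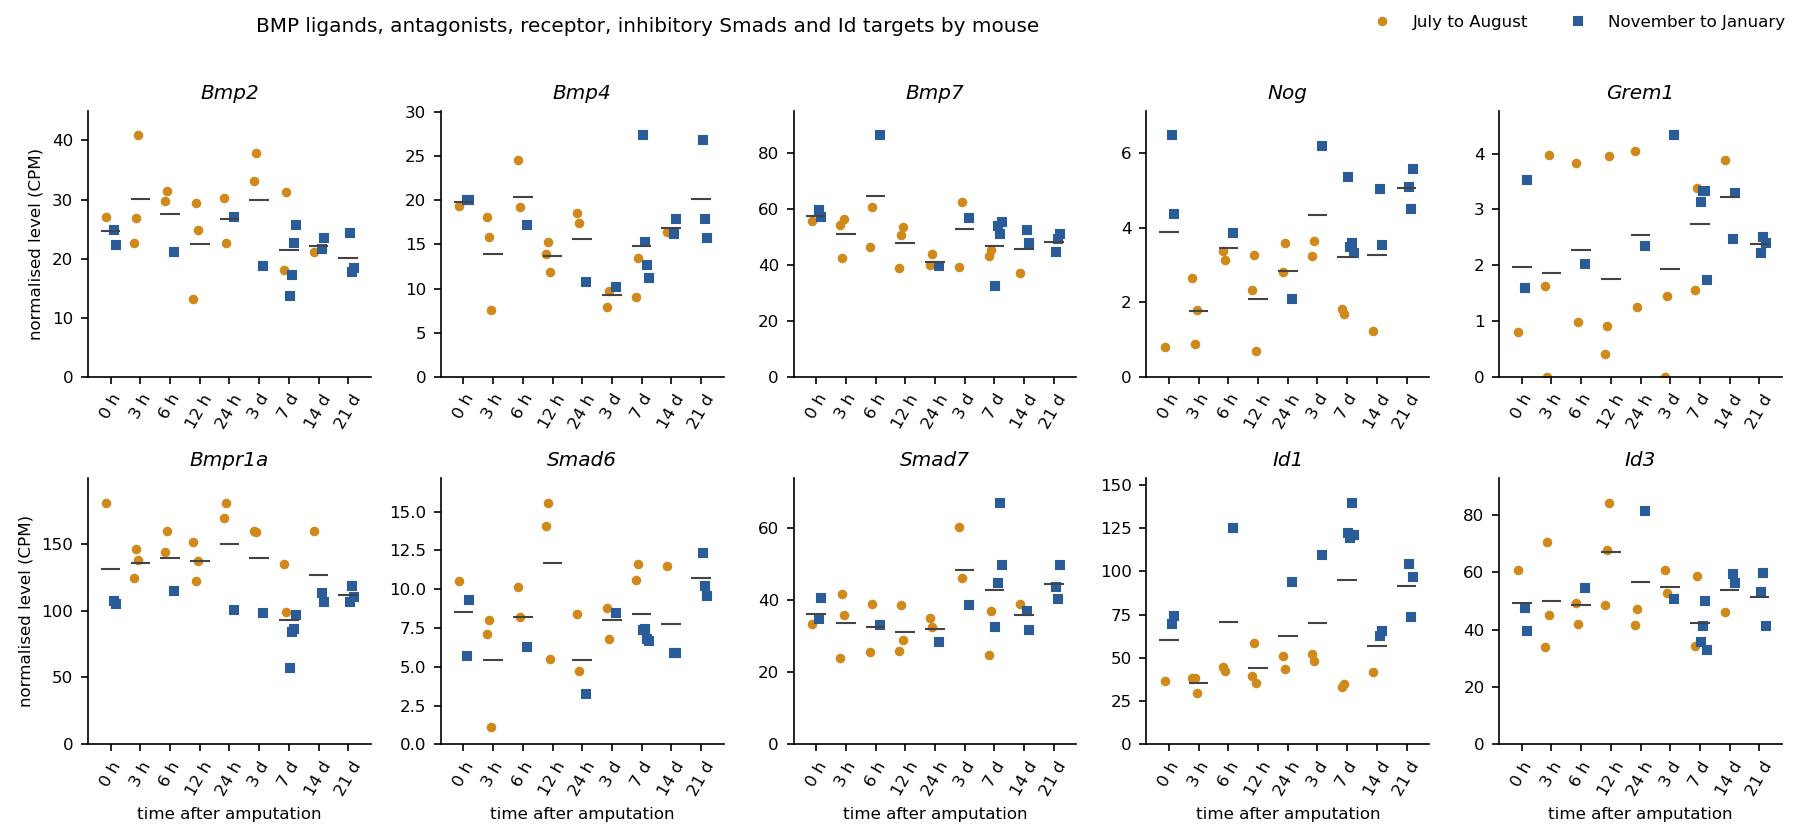
Normalised level (CPM) of the 10 genes in each of 30 mice by time after amputation, with circles for July to August, squares for November to January and a line at the mean of each time. Id1 in November to January lies at 62.4 to 139.8 CPM, above all July to August mice at 29.6 to 58.4 CPM.

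Among the ligands, Bmp4, which patterns limb and nail mesenchyme, moved furthest from 0 h. The 0 h mice held 20.0, 20.0 and 19.4 CPM, and the 3 d mice 10.1, 7.93 and 9.71 CPM. All 3 mice at 3 d were thus below all 3 at 0 h, but the 0 h mice lay close together, and all 3 mice were also below them at 3 h, 12 h, 24 h and 14 d, as were 5 of 6 at 7 d. For 3 d the log2 fold change came to -1.09 (standard error, SE, 0.34, adjusted p = 0.220 by edgeR, 95% interval -1.74 to -0.43), which did not pass. Over the alternatives tried it ran from -1.14 to -0.95 and passed in none of them. The mean then stood at 14.8 ± 6.46 CPM at 7 d (SD, n = 6), 16.8 ± 0.91 at 14 d (n = 3) and 20.1 ± 5.85 at 21 d (n = 3). The 7 d mice ran from 9.06 over a median of 13.1 to 27.3 CPM, and mouse 3, from the left foot, stood apart at the top. Without this mouse, Bmp4 passed the test over all times (adjusted p = 0.0486).

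Bmp2, a ligand that drives osteoblast differentiation, ranged from a mean of 30.1 ± 9.54 CPM at 3 h (n = 3) to 20.1 ± 3.62 at 21 d (n = 3). Single mice lay between 13.2 and 40.8 CPM, and every time overlapped 0 h (22.3 to 27.0 CPM). Bmp7, a ligand of epithelium and bone, was the highest of these 3 ligands in CPM and had its highest mean at 6 h (64.4 ± 20.1, n = 3), where mouse 2 alone reached 86.1 CPM. Its lowest mean was at 24 h (41.1 ± 2.28, n = 3), when all 3 mice (39.9, 43.8 and 39.7 CPM) lay below the 0 h mice (55.5 to 59.6 CPM). The same held for all 3 mice at 12 h, 14 d and 21 d and all 6 at 7 d. As for Bmp4, the 0 h mice lay close together (SD 2.07 CPM, n = 3), and none of these comparisons passed. The share of all genes that separate from 0 h in this way was not counted for either ligand. The adjusted p of Bmp7 at 24 h by edgeR, the lowest of any member there, was 0.492.

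Nog, which sequesters BMP ligands, had means of 1.78 ± 0.88 CPM at 3 h (n = 3) to 5.06 ± 0.54 at 21 d (n = 3). These are times that each hold mice of a single campaign. At 0 h the mice of November to January had 6.48 and 4.37 CPM and the mouse of July to August 0.80 CPM, so the baseline itself spanned nearly the full range. Grem1, a second ligand trap, stayed between 0 and 4.33 CPM, and every time overlapped every other.

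Bmpr1a, the type I receptor through which BMP2 and BMP4 mainly signal, was lowest at 7 d. The 6 mice at 7 d ran from 57.4 over a median of 91.8 to 135 CPM, and 5 of them lay below all 0 h mice (107, 105 and 181 CPM). The log2 fold change at 7 d was -0.49 (SE 0.22, adjusted p = 0.301 by edgeR). With campaign as a covariate it was -0.47 (SE 0.13, adjusted p = 0.0410) and passed, in a fit that called 3.9% of all genes at 7 d. In July to August alone it was -0.59, a value that rests on 1 mouse at 0 h. That mouse held 181 CPM, the highest Bmpr1a value of all 30 mice. In November to January alone it was -0.38 (adjusted p = 0.270 by edgeR). The direction was the same, and neither passed.

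Smad6 and Smad7 are the inhibitors that the pathway induces, and neither passed over time. Smad6 had its highest mean at 12 h (11.7 ± 5.44 CPM, n = 3), made up of 14.1, 15.6 and 5.50 CPM. Its lowest was at 3 h (5.42 ± 3.78, n = 3), where mouse 3 held only 3 counts. Smad7 was highest at 3 d (48.3 ± 11.0 CPM, n = 3), with 38.6, 60.2 and 46.1 CPM against 34.7, 40.5 and 33.4 CPM at 0 h. The log2 fold change of Smad7 at 3 d was 0.41 (SE 0.27, adjusted p = 0.933 by edgeR).

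Of the targets, neither Id1 nor Id3 passed over time in all mice. Id3 had its highest mean at 12 h (66.9 ± 17.9 CPM, n = 3) and its lowest at 7 d (42.2 ± 10.1, n = 6). Id1 had its lowest mean at 3 h (35.4 ± 4.98 CPM, n = 3) and its highest at 7 d (SD 48.0, median 120.1, n = 6). At 7 d the 6 Id1 values split into 32.9 and 34.8 CPM in the July to August mice and 119 to 139.8 CPM in the November to January mice. The SD at 7 d is therefore mostly the distance between campaigns.

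The late times (7 d, 14 d and 21 d) were then compared with the first day (3 h, 6 h, 12 h and 24 h). None of the 10 members passed with edgeR, against 15.2% of all genes, and 3 had an unadjusted p under 0.05. These were Bmpr1a with -0.36 (SE 0.13, adjusted p = 0.0615), Smad7 with 0.34 (SE 0.14, adjusted p = 0.0923) and Id1 with 0.62 (SE 0.25, adjusted p = 0.101). DESeq2 called Id1 (adjusted p = 0.0471), and limma on TPM called 0. The median of the 10 log2 fold changes was 0.19, beside 5.79e-05 over all genes tested, and 6 of the 10 were above 0.

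This comparison leans on campaign, since 10 of 12 early and 3 of 12 late mice are of July to August. With campaign as a covariate, Id1 turned to -0.16 (SE 0.13, adjusted p = 0.526) and Bmpr1a to 0.011 (SE 0.10, adjusted p = 0.964), with 12.3% of all genes called and none of the members. Within July to August Id1 was -0.15 (adjusted p = 0.773) and within November to January -0.27 (adjusted p = 0.307), both opposite in sign to the pooled value. Smad6 went the other way, from 0.26 in the pooled fit to 0.61 (SE 0.26, adjusted p = 0.139) with the covariate. Of the marker lists, 5 of 5 chondrocyte, 5 of 6 myeloid, 4 of 5 osteoclast, 4 of 6 fibroblast, 2 of 6 osteoblast and 1 of 6 endothelial genes were also higher late. Lower late were 3 of 5 erythroid, 2 of 6 keratinocyte, 1 of 6 fibroblast and 1 of 3 adipocyte genes, and their part in the members' values was not tested. Smad7 stayed above 0 in all 4 fits, at 0.34 pooled, 0.29 with the covariate, 0.10 in July to August and 0.45 in November to January, and passed in none.

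**Figure D3:**
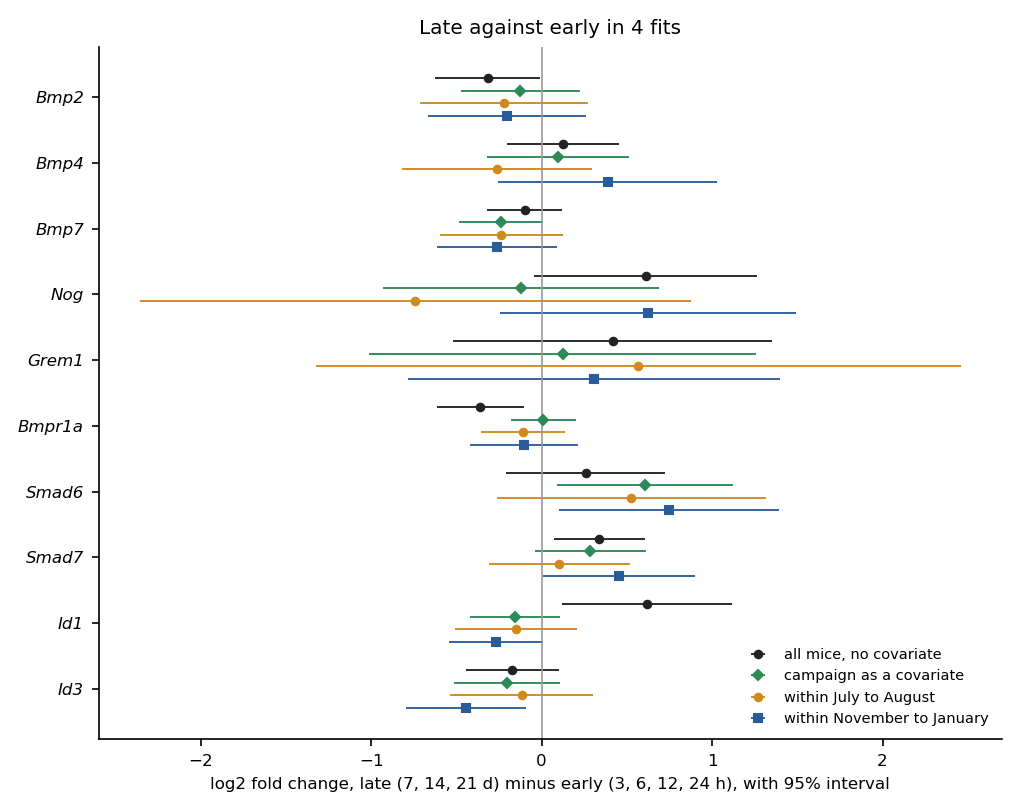
Log2 fold change of late (7, 14 and 21 d) against early (3, 6, 12 and 24 h) mice, with 95% intervals, for the 10 genes in 4 fits: all mice, campaign as a covariate, and each campaign alone. July to August holds 7 d and 14 d but no 21 d mice and November to January 6 h and 24 h but no 3 h or 12 h mice, and the Id1 value changes from 0.62 to -0.16 once campaign is in the fit.

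Leaving out single mice moved some of these calls. Id1 passed the late against early test without 6 h mouse 2 (0.81, adjusted p = 0.0213), 7 d mouse 1 (0.69, adjusted p = 0.0395) or 7 d mouse 2 (0.68, adjusted p = 0.0401). Each of these mice is the odd campaign of its side. Bmpr1a passed without 24 h mouse 3 (-0.41, adjusted p = 0.0307), 7 d mouse 1 (-0.40, adjusted p = 0.0292) or 14 d mouse 1 (-0.42, adjusted p = 0.0409), and Smad7 passed without 7 d mouse 1 (0.38, adjusted p = 0.0384).

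The difference between campaigns was therefore measured itself, in the 21 mice of the 6 times with both campaigns and with time in the fit. This test was chosen after the data were seen. With edgeR, 3 of the 10 members passed, Id1, Bmpr1a and Smad6, against 23.3% of 13587 genes tested. This share is near that of all genes, so that campaign does not mark the members as a group. Id1 stood higher in November to January, with a log2 difference of 1.26 (SE 0.12, adjusted p = 4.73e-08), a 2.40-fold difference, and was number 69 of all genes by p. Bmpr1a was lower, at -0.61 (SE 0.09, adjusted p = 4.05e-05). Smad6 was lower as well, at -0.59 (SE 0.20, adjusted p = 0.0343). Nog at 1.007 (SE 0.37, adjusted p = 0.0516) did not pass with edgeR and passed with DESeq2 (adjusted p = 0.0117).

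For Id1 the mice of the campaigns did not overlap at all on the CPM scale. In July to August the 3 h mice had 38.3, 38.2 and 29.6 CPM, the 12 h mice 39.4, 58.4 and 35.2 CPM, and the 0 h mouse 36.8 CPM. The mice at 6 h (44.6 and 42.3 CPM), 24 h (51.1 and 43.4 CPM), 3 d (52.3 and 48.3 CPM), 7 d (32.9 and 34.8 CPM) and 14 d (42.0 CPM) were alike. All 16 values lay in a band of 29.6 to 58.4 CPM, whatever the time.

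In November to January Id1 stood at 69.8 and 74.3 CPM at 0 h, 125 CPM at 6 h, 93.9 CPM at 24 h and 109.5 CPM at 3 d. It was at 122, 119, 139.8 and 121 CPM at 7 d, 62.4 and 65.4 CPM at 14 d, and 104, 73.7 and 96.6 CPM at 21 d. Here 0 h and 14 d were low and 7 d high, and the lowest of these 14 mice was above the highest of the other 16. Such a gap with November to January higher was found in 1.28% of all 13793 genes, and Id1 was the only member with it. In TPM the gap closed, with 59.7 to 158 in July to August and 155 to 306 in November to January.

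At each of the 6 shared times the lowest Id1 mouse of November to January was above the highest of July to August, which held in 5.55% of all genes. The ratio of the campaign means ran from 1.52 at 14 d to 3.71 at 7 d. Bmpr1a showed the reverse at each of the 6 times, with all November to January mice below all July to August mice, which held in 2.57% of all genes. Its ratios ran from 0.573 at 24 h to 0.754 at 6 h. Smad6 was below in 5 of 6 times and overlapped at 3 d. Nog was above in 5 of 6 times and below at 24 h. The share of all genes with such counts was not taken, and each shared time but 7 d sets 1 mouse against 2. Id3, whose campaign difference did not pass, was itself above at 3 and below at 2 of the 6 times.

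The ligands did not differ detectably by campaign. Bmp2 was at -0.31 (95% interval -0.60 to -0.01, adjusted p = 0.153), Bmp4 at 0.04 (-0.33 to 0.41, adjusted p = 0.904) and Bmp7 at 0.22 (-0.01 to 0.46, adjusted p = 0.194), although limma on TPM called Bmp2. The unadjusted p of Bmp2 by edgeR was 0.0532, so its interval, which leaves out 0, is somewhat too narrow. Id3 differed by 0.06 (-0.21 to 0.32, adjusted p = 0.823) and Smad7 by 0.08 (-0.22 to 0.39, adjusted p = 0.764). Thus of the targets, Id1 differed by campaign while the interval of Id3 reached 0.32 in that direction, and the difference between both genes was not tested. Grem1 was at 0.48 with a wide interval of -0.46 to 1.42.

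**Figure D4:**
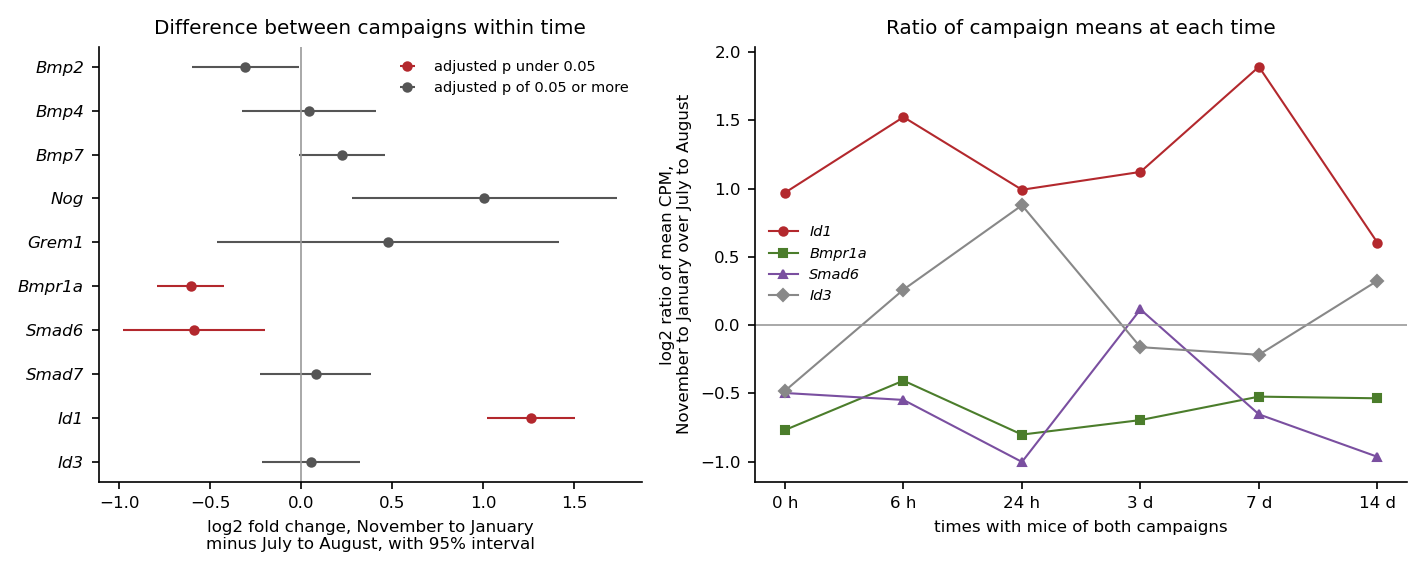
Left, log2 fold change of November to January against July to August within time for the 10 genes, with 95% intervals, in red where the adjusted p is under 0.05 (Id1 1.26, Bmpr1a -0.61 and Smad6 -0.59). Right, log2 ratio of the mean CPM of the campaigns at each of the 6 shared times for Id1, Bmpr1a, Smad6 and Id3, where Id1 is above 0 and Bmpr1a below 0 at all 6.

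Id1 and Bmpr1a passed the campaign test when any of the 21 mice was left out. Smad6 lost its call without the left-foot mice (adjusted p = 0.051), without the filter on low counts (adjusted p = 0.0659), and without 0 h mouse 1 or 3, 6 h mouse 2, 24 h mouse 3, 7 d mouse 1 or 2, or 14 d mouse 1, 2 or 3, with adjusted p up to 0.11. Its log2 difference stayed between -0.60 and -0.52 in all these settings. Nog passed without 24 h mouse 2 (adjusted p = 0.0436) or 24 h mouse 3 (adjusted p = 0.0167). Cell type markers also differed between campaigns. Of the keratinocyte list, 3 of 6 genes were higher in November to January, with summed levels of 28497 to 89438 CPM in July to August and 26811 to 62908 CPM in November to January. Of the endothelial list, 3 of 6 were lower, with sums of 129 to 292 CPM and 87.9 to 229 CPM. Of the fibroblast list 2 of 6 were lower, of the myeloid list 1 was higher and 2 lower of 6, of the osteoclast list 1 of 5 was lower, of the smooth muscle list 1 of 6 was higher, and of the other 6 lists none passed. The part of these cells, of depth and of foot in the differences of Id1, Bmpr1a and Smad6 was not tested.

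Within November to January alone, Id1 did change over its 7 times. The adjusted p of edgeR's F-test was 0.0135, where 8.08% of all 14516 genes passed, and Id1 was the only member that did. The 4 mice at 7 d (119 to 139.8 CPM) were all above both mice at 0 h (69.8 and 74.3 CPM). The log2 fold change at 7 d was 0.80 (SE 0.16, adjusted p = 0.0214), where 2.93% of all genes passed. Without the left-foot mice, it was 0.97, a value that rests on 1 mouse at 7 d, whose spread had to be taken from the other times.

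With each of these mice left out, the log2 fold change at 7 d stayed between 0.75 and 0.84, while its adjusted p moved. The call at 7 d was lost without 0 h mouse 1 (adjusted p = 0.279), 0 h mouse 2 (adjusted p = 0.180) or 7 d mouse 5 (adjusted p = 0.0502), where leaving out a 0 h mouse leaves 1 mouse at 0 h, assumed to vary like the other times. The call over all times was lost without 14 d mouse 2 (adjusted p = 0.0632) or 14 d mouse 3 (adjusted p = 0.0579). In the same mice, 4 of 5 tested genes of the osteoclast list were higher at 7 d than at 0 h, as were 1 of 6 each of the keratinocyte, fibroblast, osteoblast and myeloid lists, while 1 of 6 of the fibroblast and 1 of 6 of the erythroid list were lower. Their part in the Id1 values was not tested.

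Within July to August, no member changed over its 8 times with edgeR, against 5.85% of all genes, and none had an unadjusted p under 0.05. Id1 had an adjusted p of 0.664 there. Its log2 fold change at 7 d was -0.083, a value that rests on 1 mouse at 0 h. Whether the campaigns differ in their course was tested as an interaction. None of the members passed, against 1.35% of all genes, with Id1 closest (adjusted p = 0.0638). From 0 h to 7 d alone, the Id1 change was larger in November to January by 0.92 (SE 0.26). This difference rests on the same 1 mouse of July to August at 0 h and did not pass. A different course of Id1 in the campaigns is therefore not shown.

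The list of other BMP pathway genes held 54 names, of which 44 were tested. Over all times, 7 of the 44 passed (3 of 13 extracellular antagonists and modulators, 1 of 6 Smads and ubiquitin ligases, 3 of 10 targets, 0 of 5 ligands and 0 of 10 receptors), beside 9.03% of all genes. Against 0 h, 1 rose at 7 d, 3 at 14 d and 3 at 21 d, and 0 fell, beside 2.39%, 1.59% and 1.94% of all genes called in either direction. Late against early, 8 rose and 0 fell, with a median of 0.14 over the 44 genes beside 5.79e-05 over all genes. With campaign as a covariate, 6 rose and 0 fell. All genes called came to 15.2% and 12.3% in these fits, and the counts of the list are near those shares. Between campaigns 12 of 44 differed, 4 higher and 8 lower in November to January, beside the 23.3% of all genes.

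The clearest were the osteoblast factors Sp7 (osterix) and Runx2, which BMPs induce in bone-forming cells. Sp7 held 7.04, 9.70 and 2.56 CPM at 0 h and 38.1, 43.8 and 48.5 CPM at 21 d, without overlap. It rose by 2.71 at 14 d (SE 0.43, adjusted p = 0.000351) and by 2.73 at 21 d (SE 0.43, adjusted p = 0.000240). Runx2 went from 11.0, 12.9 and 11.5 CPM at 0 h to 34.7, 31.0 and 41.0 CPM at 21 d, a log2 fold change of 1.59 (SE 0.41, adjusted p = 0.0299). Sp7 and Runx2 rose late against early with and without campaign in the fit (Sp7 2.78 and 2.57, Runx2 1.49 and 1.88), in contrast to Id1, whose sign turned. Sp7 also belongs to the osteoblast marker list, of which 2 of 6 genes rose late against early.

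Among antagonists, Fst (follistatin, which binds activins and some BMPs) passed the test against 0 h from 7 d on. It held 40.3, 37.6 and 33.6 CPM at 0 h, and all 6 mice at 7 d, from 76.6 to 123 CPM, were above these. The log2 fold change was 1.49 at 7 d (SE 0.25, adjusted p = 0.000465), 1.03 at 14 d (adjusted p = 0.0414) and 1.04 at 21 d (adjusted p = 0.0321). All Fst values at 6 h, 24 h and 3 d were also above the 0 h mice, while those at 3 h and 12 h overlapped them. The means at 24 h and 3 d (76.0 and 77.9 CPM) were near those at 14 d and 21 d (76.1 and 76.7 CPM). No comparison before 7 d passed, so the start of the rise is not resolved. The share of all genes that separate in this way was not counted. The ligand Bmp5 rose late against early by 0.61 (SE 0.17, adjusted p = 0.0155), unlike Bmp2 at -0.32 (SE 0.16, adjusted p = 0.173). The difference between these ligands was not tested.

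**Figure D5:**
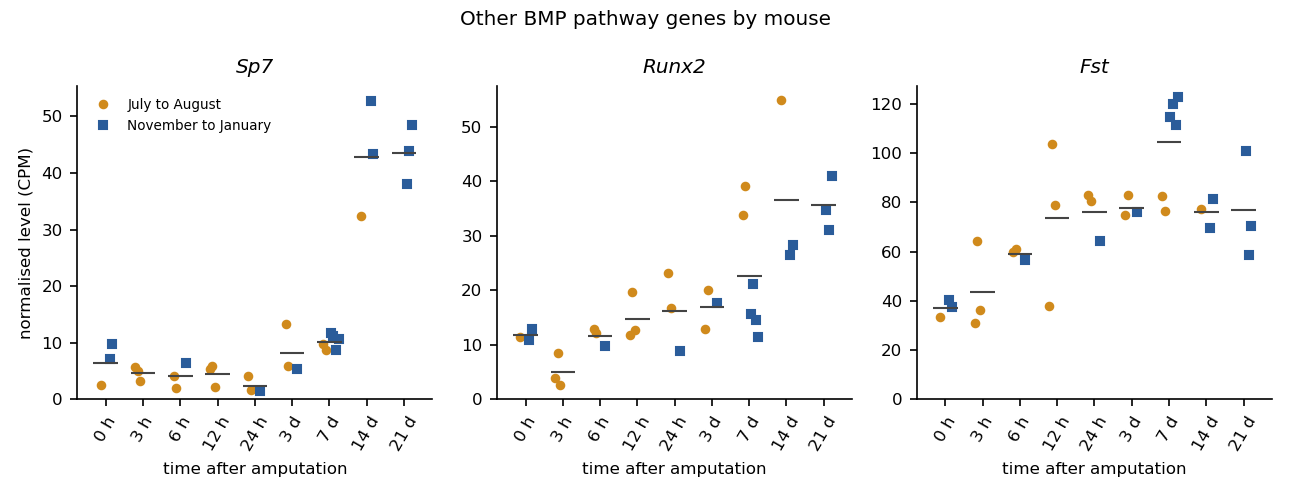
Normalised level (CPM) of Sp7, Runx2 and Fst in each of 30 mice by time, with circles for July to August, squares for November to January and a line at the mean of each time. Sp7 at 14 d and 21 d lies above every mouse of the earlier times.

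Chrdl1 (chordin-like, 1.26), Fstl3 (0.91) and Nbl1 (0.64), all secreted antagonists, also rose late against early (adjusted p = 0.0315, 0.00429 and 0.0151) and, like Fst, did not pass with campaign in the fit. Chrdl1 was spread widely at 21 d (27.3, 13.4 and 4.22 CPM), and its 7 d mice (0 to 5.06 CPM) overlapped those at 3 h (1.45 to 6.48 CPM). Id4, Sostdc1 (a BMP and Wnt antagonist) and Smurf1 (a ubiquitin ligase that removes Smads) passed over all times (adjusted p = 0.0335, 0.00809 and 0.0336). Their highest means were at 7 d for Id4 (81.9 ± 24.3 CPM, n = 6), at 3 d for Sostdc1 (23.5 ± 6.93, n = 3) and at 3 h for Smurf1 (115 ± 36.0, n = 3). For Sostdc1 the means at 0 h (21.8 CPM) and 24 h (22.6 CPM) were close to that at 3 d. Its low means were at 3 h (8.29 CPM), 12 h (12.3 CPM), 14 d (8.58 CPM) and 21 d (9.51 CPM). At 7 d Id4 held 58.5 and 57.5 CPM in July to August and 77.3 to 121 CPM in November to January. Id4 was also among the genes that differed between campaigns. The 3 h mice behind the Smurf1 value are all of July to August.

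Finally, Id1 was related to the other 9 members among mice of the same time, as deviations from the mean of each time on the log2(CPM + 1) scale. Over all 30 mice, 2 of 9 relations passed a two-sided permutation test, with Bmpr1a (adjusted p = 0.000720) and Nog (adjusted p = 0.00418), the members that sat on opposite sides of the campaigns. Because Id1 falls into separate clusters by campaign, no pooled coefficient is given. Within November to January (11 mice) no relation passed, with Bmpr1a at a Pearson r of -0.13 and a Spearman rho of -0.49 (permutation p = 0.683 and 0.156) and Nog at 0.03 and 0.08 (permutation p = 0.916 and 0.805). Within July to August (14 mice) Bmpr1a was at r = -0.47 and rho = -0.50 (permutation p = 0.162 and 0.121) and Nog at r = 0.49 and rho = 0.08 (permutation p = 0.441 and 0.835). Neither relation passed within a campaign, although the coefficients of Bmpr1a were below 0 in both, and groups of this size leave a relation within campaigns undecided.

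Within July to August, Smad6 followed Id1, with r = 0.77 and rho = 0.85 (permutation p = 0.00374 for each, adjusted p = 0.0337 over the 9 relations and 0.0673 over the 18 of both campaigns). Without the 2 mice farthest from the median of Id1, r was 0.89 over 12 mice (permutation p = 0.0609). In November to January the same relation had r = 0.27 and rho = 0.29 (permutation p = 0.498 and 0.483). Smad6 and Id1 both come from the same library, and Smad6 rests on few counts.

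The 3 genes most like Id1 over the 30 mice by Pearson r, out of 10856 with at least 5 CPM on average, were Ntm, Tbca and Spop. Their r was 0.50, 0.49 and 0.20 within July to August and 0.72, 0.82 and 0.80 within November to January. For Bmp2 they were Pank4 (0.72 over 30 mice), Bach2 (0.67) and Lama5 (0.66). Within the campaigns these were 0.69, 0.67 and 0.59 in July to August and 0.59, 0.59 and 0.49 in November to January. These are descriptions over mice that share library depth and campaign.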

How the data were processed

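The authors prepared polyA libraries (LM-Seq) and sequenced 65-base single-end reads, called with CASAVA 1.8.2. They mapped reads with Bowtie to Ensembl release 75 mouse genes (mm10) and quantified them with RSEM 1.2.3. The expected counts deposited by the authors are estimated counts per gene, not normalized, and the TPM deposited by the authors are relative to all genes of a mouse. A deposited table of averages per time was not used.

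Expected counts were rounded to whole numbers (78.1% already were) and tested in R 4.3.3 with edgeR 4.0.16 after TMM scaling and filterByExpr by time point, using robust quasi-likelihood fits of all 30 mice without covariates, and Benjamini-Hochberg adjustment at 0.05. TPM was used for levels per length and, as log2(TPM + 1) or log2(TPM + 0.1), in limma 3.58.1. Permutations (100000) and plots used Python 3.11.15, numpy 2.4.6, scipy 1.17.1, pandas 2.3.3 and matplotlib 3.10.9. Intervals of 95% are 1.96 standard errors. They are somewhat narrower than edgeR's quasi-likelihood test implies, so an interval can leave out 0 where the p-value is above 0.05. Floors hold for counting error alone, because copies made by PCR are not separate molecules. The p-values measure the spread between mice. In fits without campaign, this spread includes the distance between campaigns at the times that hold both.

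The members, lists and tests were chosen with earlier results of these data known. All members are named. Other pathway genes are named where they passed a test, at most 12, and 1 of them is not reported here. For likeness, the 3 genes with the highest r to Id1 and Bmp2 are named, as no member passed over time. Alternatives were DESeq2 1.42.0 (size factors, test), no filter, the campaign covariate, a fit without left-foot mice, a threshold of 0.01, limma, fits restricted to the 2 times in question, and leaving out each mouse. The campaign, interaction and within-campaign fits were added after the data were seen. Counts of all 39 same-time pairs of mice differed beyond sampling noise (chi-square over its degrees of freedom 9.83 to 94.7). The scripts were tested on simulated data.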

Additional observations from a re-analysis of the deposited data

Results flagged for a closer look

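Bmp4 at 7 d had 1 mouse far from the others. Mouse 3 of November to January, from the left foot, held 27.3 CPM where the other 5 held 9.06 to 15.2 CPM, and its gap to the next mouse was 0.662 of the whole range. Chance alone marks about 1 in 20 such groups, and 10 genes were looked at. The same mouse was the highest of the 7 d mice for Nog (5.35 CPM) and the lowest for Bmp2 (13.7 CPM), Bmp7 (32.5 CPM) and Bmpr1a (57.4 CPM). The part of this library in those values was not tested.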

How the results depend on the processing

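The count of members called stayed at 0 under every alternative against 0 h at the 7 times other than 7 d. At 7 d it became 1 with campaign as a covariate (Bmpr1a) and 1 within November to January (Id1). Over the 9 time points it became 1 within November to January (Id1), and ran from 0 to 1 with each mouse left out. Late against early it became 1 with the DESeq2 test (Id1) and ran from 0 to 3 with each mouse left out, 3 without 7 d mouse 1. The late against early value reversed within July to August for Bmp4 (-0.26), Nog (-0.74) and Id1 (-0.15), within November to January for Id1 (-0.27), and with campaign as a covariate for Nog (-0.12), Bmpr1a (0.011) and Id1 (-0.16). The Id1 value at 7 d against 0 h reversed within July to August (-0.083). Members differing between campaigns numbered 3, and 2 to 4 over all alternatives. Id1 relations passing numbered 2 over all mice, 1 within July to August and 0 within November to January. Within November to January, the Id1 change at 7 d ran from 0.75 to 0.84 and its adjusted p over time from 0.00469 to 0.0632 with each mouse left out. The cause of these changes was not tested. Low counts limit Grem1, Nog and Smad6 most. No paired analysis was possible because replicate numbers were given in accession order and only name libraries. An animal code shared by a 0 h and a 12 h library leaves unstated whether these are 1 mouse.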
